A study of Mus musculus with 4 samples.

Results

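The genes described here encode heat-shock proteins, J-domain proteins and the cytosolic chaperonin, and they were measured by bulk RNA-seq in thymocytes of Cxxc1 conditional knockout mice and their controls. Members were all gene symbols in the count files that begin as Hspa, Hspb, Hspd, Hspe, Hsph or Hsp90, as Dnaja, Dnajb or Dnajc followed by digits, or as Cct followed by a digit, together with Tcp1. The pattern found 81 of 35976 symbols: 3 HSP90, 13 HSP70, 1 HSP110, 8 small heat-shock protein, 2 HSP60 and HSP10, 9 chaperonin (CCT), 4 DNAJA, 13 DNAJB and 26 DNAJC genes, and 2 genes for HSP-binding proteins (Hspbp1 and Hspbap1) that share the spelling. Of these, 76 had enough reads to be tested, and Hspb1, Hspb2, Hspb3, Dnajb8 and Dnajc22 had too few.

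The cells were double-positive (DP) thymocytes, sorted as CD24-positive, surface TCRb-negative, CD4-positive and CD8a-positive. Knockout (KO) cells came from Cxxc1 F/F :Lck-cre mice, in which the floxed Cxxc1 gene is deleted by a Cre transgene driven in T-lineage cells. Control cells, labelled Wt, came from Cxxc1 +/+ :Lck-cre mice, which carry the same transgene. There were 2 libraries per genotype (KO 1, KO 2, control 1 and control 2). The CXXC1 protein recognises CpG sites free of methylation and is a subunit of the SETD1 histone methyltransferases, which mark active promoters. The labels give no age and name no animal for any library, and each p-value therefore reflects the spread among these libraries alone, part or all of which may be technical.

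Chaperones bind unfolded proteins and help them reach or keep their native fold. HSP70 proteins (the Hspa genes) bind short exposed stretches in a cycle driven by ATP, J-domain proteins (the Dnaj genes) deliver substrates to HSP70 and start its ATP hydrolysis, and HSP90 acts later on signalling proteins such as kinases and steroid receptors. HSP60 with its lid HSP10 forms the folding chamber of mitochondria, and CCT, a ring of different subunits encoded by Tcp1 and the Cct genes, folds actin and tubulin in the cytosol. A subset is induced by heat through the transcription factor HSF1, which binds repeats of GAA in alternating orientation, and the chaperones of the endoplasmic reticulum (ER) are induced by the unfolded protein response through a different element.

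3 promoter regions show these elements, and are given because their genes are compared below. Each is the 250 bases before the gene's RefSeq start on GRCm38.p6 (mm10 is the same assembly), written 5′ to 3′ on the gene's strand. Capitals mark heat-shock elements in Hspe1 (chr1:55087898-55088147, plus strand) and ER stress response elements in Hspa5 (chr2:34771840-34772089, plus strand) and Hsp90b1 (chr10:86705445-86705694, minus strand).
Hspe1: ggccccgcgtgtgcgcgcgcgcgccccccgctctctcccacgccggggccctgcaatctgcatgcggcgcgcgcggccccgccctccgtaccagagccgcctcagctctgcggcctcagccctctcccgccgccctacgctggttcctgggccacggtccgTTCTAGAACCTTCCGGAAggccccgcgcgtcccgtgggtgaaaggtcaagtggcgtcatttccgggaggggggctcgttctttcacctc
Hspa5: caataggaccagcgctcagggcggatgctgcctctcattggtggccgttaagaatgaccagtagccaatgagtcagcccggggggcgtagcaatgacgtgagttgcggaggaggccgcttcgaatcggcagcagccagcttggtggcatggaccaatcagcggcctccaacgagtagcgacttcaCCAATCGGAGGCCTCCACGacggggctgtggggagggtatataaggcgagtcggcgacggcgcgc
Hsp90b1: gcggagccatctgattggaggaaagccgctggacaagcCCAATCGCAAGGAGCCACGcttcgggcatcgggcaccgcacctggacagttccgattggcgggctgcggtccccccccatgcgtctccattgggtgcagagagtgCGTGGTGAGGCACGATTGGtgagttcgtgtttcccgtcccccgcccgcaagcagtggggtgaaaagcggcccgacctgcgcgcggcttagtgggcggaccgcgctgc

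Hspd1 lies head to head with Hspe1 on the opposite strand and has 2 RefSeq starts. The printed region precedes Hspe1 and spans the inner Hspd1 start (window chr1:55087883-55088182). It lies inside the longer Hspd1 transcript, whose window is chr1:55088194-55088493. The heat-shock element was searched as GAANNTTCNNGAA and as TTCNNGAANNTTC, its reverse complement, in windows from 250 bases before to 50 bases after each start. Both orders matched in the Hspe1 region, and together they cover 18 bases that start 89 bases before the gene. A match was present in 4 of 64 tested members with a promoter entry (6.25%), Hspd1, Hspe1, Hsph1 and Dnajb6, against 0.662% of 14352 tested genes. The matches printed for Hspe1 also lie in the inner Hspd1 window, so they are counted for both genes. The ER element, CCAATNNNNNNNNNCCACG or its reverse complement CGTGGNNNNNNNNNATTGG, was present in Hspa5, Hsp90b1 and Dnajc3 (4.69% of tested members, against 0.174% of tested genes). The E-box CACGTG, the sequence bound by MYC among other factors, was in 7 of the 64 (10.9%), Hspd1 among them, against 10.3% of tested genes. These matches describe the letters in the windows and do not show that a factor binds there. Of the 81 members 67 had a promoter entry, and Cct4, Dnajc2, Dnajc5, Dnajc11, Dnajc12, Dnajc18, Dnajc22, Dnajc30, Hspa8, Hspa9, Hspa13, Hspb2, Hsp90aa1 and Hsp90ab1 had none.

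Total counts were 36243182, 33544428, 12150508 and 34820446 in KO 1, KO 2, control 1 and control 2. Levels are CPM (counts scaled to a common library size) on TMM-scaled library sizes, where 3 counts correspond to 0.0843 to 0.252 CPM, and log2 fold changes compare KO with control, a positive value meaning higher in KO, ± standard error. Cxxc1 itself had 35.7 and 39.4 CPM in KO 1 and KO 2, against 111 and 53.5 CPM in control 1 and control 2 (log2 fold change -1.12 ± 0.34, edgeR adjusted p = 0.199), with both KO libraries below both controls. The labels do not give the floxed exons, and reads from exons outside them still count. All 8 defining DP markers were detected in every library, and 3 were lower at the threshold. Their summed levels were 4468 and 6975 CPM in KO 1 and KO 2, against 10284 and 13596 CPM in control 1 and control 2. The largest part of each sum was Rag1, which was not called (edgeR adjusted p = 0.357). Rag1 had 2997 and 4488 CPM in KO 1 and KO 2, against 4967 and 7055 CPM in control 1 and control 2. Of 8 early T-lineage markers, 3 were higher at the threshold (Il2ra, Il7r and Notch3). The 8 summed to 3039 and 1513 CPM in KO 1 and KO 2, against 802 and 512 CPM in control 1 and control 2. Most of each sum was Notch1, which was not called (edgeR adjusted p = 0.107). Notch1 had 2313 and 1084 CPM in KO 1 and KO 2, against 653 and 387 CPM in control 1 and control 2. Of the 8, 7 had positive fold changes and 1, Cd44, a negative one (-1.30 ± 0.32). In bulk samples, fewer cells of a type and less RNA per cell cannot be told apart. The 6 erythroid markers summed to 26.2 to 38.0 CPM in KO and 8.66 to 14.0 CPM in control libraries. Hba-a1, Hba-a2, Hbb-bs and Hbb-bt were at 0 in both controls and present in both KO libraries. Hba-a1 alone of the 6 was higher at the threshold (edgeR adjusted p = 0.0177). Most of the control sums was Alas2, at 8.24 and 14.0 CPM in control 1 and control 2, against 11.5 and 15.7 CPM in KO 1 and KO 2. B-cell markers summed to 7.92 to 10.8 CPM in KO and 8.02 to 9.67 CPM in control libraries, and myeloid markers to 33.8 to 54.8 CPM in KO and 24.2 to 34.4 CPM in control libraries. The part of other cells in the chaperone levels was not tested.

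Across the chaperone genes, no member passed edgeR's test with genotype as the only term. The members with the smallest unadjusted p-values were mostly higher in KO, with Hspd1, Hspa9, Dnajc9 and Cct3 among them. Of 76 tested members, 0 were called higher and 0 lower at an adjusted p below 0.05 in edgeR's quasi-likelihood test, where 0.451% of all 20389 tested genes were called, 0.27% higher and 0.181% lower. At an unadjusted p below 0.05, 10 members were higher in KO (13.2%, against 6.97% of all tested genes) and 2 were lower (2.63%, against 6.91%). DESeq2 called 2, Hspd1 and Hspa9, both higher, among 4.64% of tested genes that it called. The median log2 fold change of the members was 0.20, beside -0.04 for all tested genes. Both KO libraries lay above both controls in 23 members (30.3%, against 22.8% of tested genes) and below both in 9 (11.8%, against 24%), and they overlapped in 44, where the genotypes did not overlap in 46.8% of tested genes. A positive fold change was found in 52 of 76 (68.4%, against 47.6% of tested genes). Of the 55 members with a mean of at least 10 CPM, 42 (76.4%) had a positive fold change, where the share was 55.9% over the 9255 tested genes at that level. Without KO 1 the members with an unadjusted p below 0.05 numbered 2 higher and 0 lower, beside 3.53% and 3.79% of tested genes in that fit. Without KO 2 they numbered 16 higher and 0 lower, beside 5.7% and 7.11% of tested genes.

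**Figure D1:**
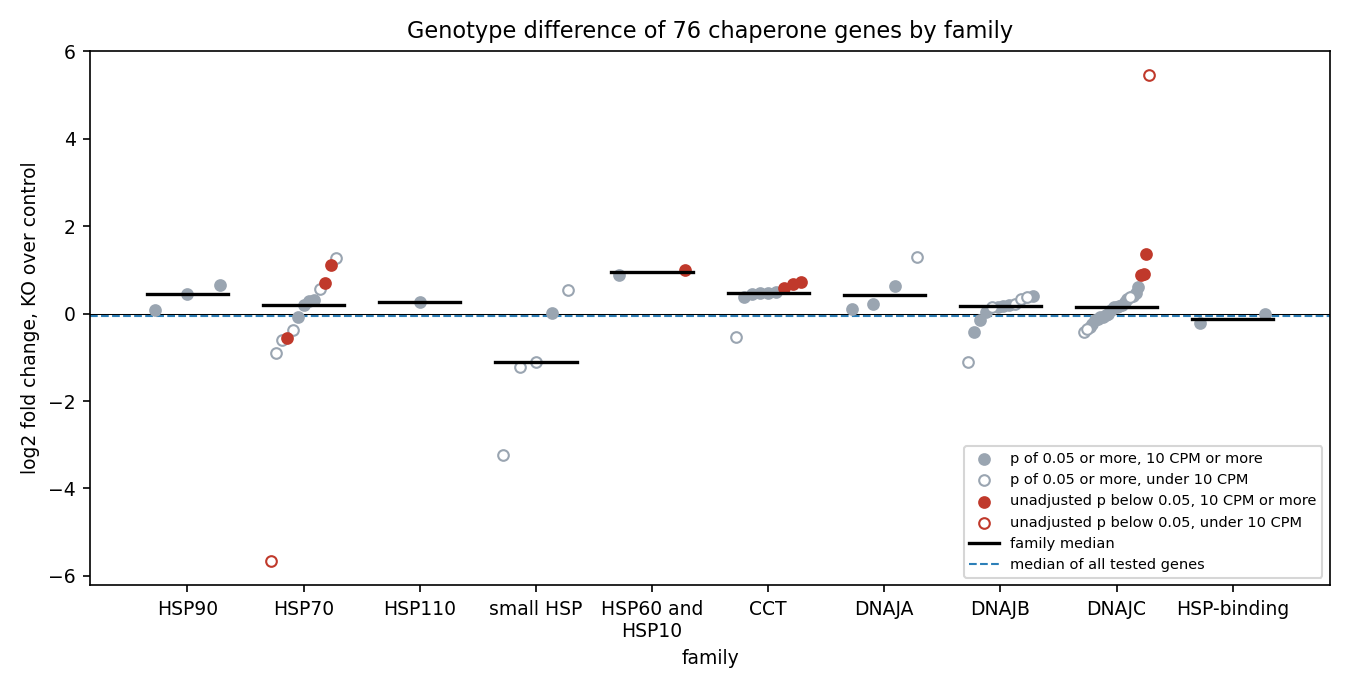
Log2 fold change of KO over control for each of the 76 tested members (y axis) by family (x axis); filled points have a mean of at least 10 CPM, red marks an unadjusted p below 0.05, bars are family medians and the dashed line is the median of all tested genes. Both mitochondrial HSP60 and HSP10 genes, 8 of 9 CCT, 9 of 12 DNAJB and 16 of 25 DNAJC genes lie above 0.

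The mitochondrial chaperonin pair had the highest family median, at 0.94, with 0 of 2 members called. Hspd1 (chromosome 1, 55077833 to 55088243), which encodes HSP60, had 152 and 103 CPM in KO 1 and KO 2, against 64.8 and 62.8 CPM in control 1 and control 2. Both KO libraries lay above both controls, which were close to each other. Its means were 127 ± 34.6 CPM in KO and 63.8 ± 1.40 CPM in control (SD, n = 2 each), a log2 fold change of 0.99 ± 0.26 (unadjusted p = 0.00354, adjusted p = 0.138). Hspe1 (chromosome 1, 55088148 to 55091317), which encodes HSP10, had 71.6 and 32.2 CPM in KO 1 and KO 2, against 34.0 and 22.2 CPM in control 1 and control 2. KO 1 was above the other 3 libraries, and KO 2 lay between the controls. The log2 fold change of Hspe1 was 0.89 ± 0.40 (adjusted p = 0.365). DESeq2's adjusted p was 0.0214 for Hspd1, and without KO 1 the edgeR estimates of Hspd1 and Hspe1 were 0.72 and 0.24.

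Hspa9 (chromosome 18, 34937414 to 34954351), the HSP70 of the mitochondrial matrix that pulls proteins through the import channel, had 329.8 and 155 CPM in KO 1 and KO 2, against 123 and 102.3 CPM in control 1 and control 2. Both KO libraries were above both controls, and KO 1 was well above KO 2. Its log2 fold change of 1.10 ± 0.34 was the largest positive one among members with at least 100 CPM on average, and it did not pass edgeR's test (unadjusted p = 0.00947, adjusted p = 0.206). The estimate without KO 1 was 0.50, and without KO 2 it was 1.55 and passed (adjusted p = 0.0401). Dnajc19, the J-domain protein that activates this HSP70 at the import motor, had 31.4 and 32.0 CPM in KO 1 and KO 2, against 21.1 and 12.8 CPM in control 1 and control 2, with no overlap of the genotypes. Its log2 fold change was 0.91 ± 0.34 (adjusted p = 0.286), and 178 bases of its exons overlap Fxr1 on the opposite strand. Dnaja3, the mitochondrial DNAJA protein, had 42.0 and 36.8 CPM in KO 1 and KO 2, against 29.9 and 21.4 CPM in control 1 and control 2, also without overlap (log2 fold change 0.62 ± 0.30, adjusted p = 0.396).

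Over the 8 members placed in mitochondria (Hspa9, Hspd1, Hspe1, Dnaja3, Dnajc11, Dnajc15, Dnajc19 and Dnajc30), 0 were called and the median was 0.76. Both KO libraries were above both controls in 5 of the 8, where this held for 22.8% of all tested genes. Counted separately over genes of at least 10 CPM, KO 1 was above both controls in 44.5% and KO 2 in 36.5%. The opposite order was found in 0 of the 8 and in 24% of tested genes. Dnajc15 and Dnajc30 had negative fold changes, of -0.15 ± 0.28 and -0.35 ± 0.75, which turned positive without KO 1 (0.11 and 0.16). The median was 0.37 without KO 1 and 0.49 without control 2. Among 12 other genes of mitochondrial protein quality control, 0 were called and the median was 0.37. Positive fold changes were found in 11 (91.7%, against 47.6% of all tested genes and 55.9% of those with at least 10 CPM). The mitochondrial HSP90 gene Trap1 had the smallest p in that list, with 103 and 92.2 CPM in KO 1 and KO 2, against 70.6 and 50.8 CPM in control 1 and control 2 (log2 fold change 0.68 ± 0.25, adjusted p = 0.272).

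**Figure D2:**
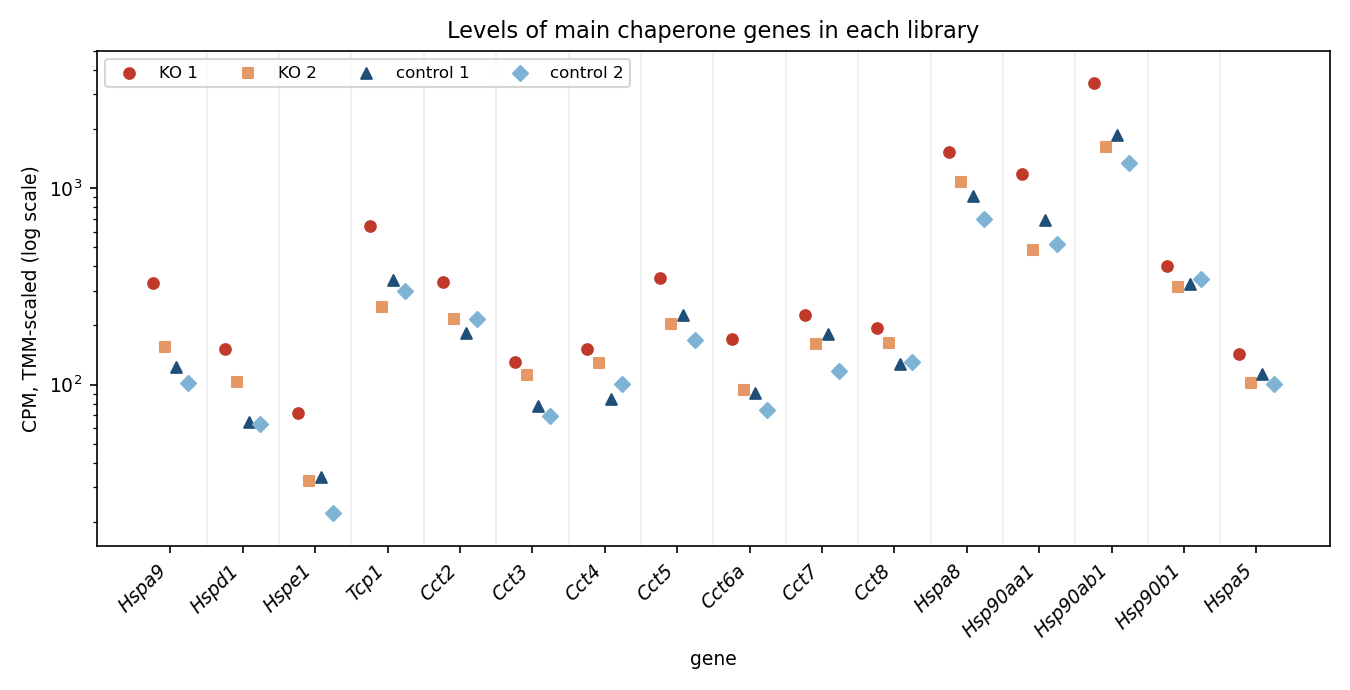
CPM on a log scale (y axis) of 16 chaperone genes (x axis) in KO 1, KO 2, control 1 and control 2, each point 1 library. For Hspd1, Hspa9, Cct3 and Cct4 both KO libraries lie above both controls, whereas for Hsp90aa1, Hsp90ab1 and Tcp1 only KO 1 does.

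Most genes of the CCT ring had higher estimates in KO, and none passed the test. The median log2 fold change of the 9 genes was 0.47, with 0 called in edgeR and 0 in DESeq2. At an unadjusted p below 0.05, 3 were higher (33.3%, against 6.97% of all tested genes and 9.64% of those with at least 10 CPM). A positive fold change was found in 8 (88.9%, against 47.6% of all tested genes and 55.9% of those with at least 10 CPM). The exception was Cct6b, a subunit gene used mainly in testis, which had few reads, with 1.26 and 1.38 CPM in KO 1 and KO 2, against 3.11 and 0.779 CPM in control 1 and control 2. Cct3 (chromosome 3, 88297135 to 88321766), encoding the gamma subunit, had 129.8 and 112 CPM in KO 1 and KO 2, against 77.8 and 69.3 CPM in control 1 and control 2. Its genotypes did not overlap, and its log2 fold change of 0.72 ± 0.23 had the smallest p of the family (unadjusted p = 0.0110, adjusted p = 0.214). Cct4 (chromosome 11, 22990593 to 23003336), encoding the delta subunit, had 151 and 129 CPM in KO 1 and KO 2, against 84.7 and 101.1 CPM in control 1 and control 2, again without overlap (log2 fold change 0.59 ± 0.23, adjusted p = 0.298). Cct6a, the zeta subunit gene, had 171 and 93.7 CPM in KO 1 and KO 2, against 90.1 and 74.7 CPM in control 1 and control 2, where KO 2 lay only just above control 1 (log2 fold change 0.68 ± 0.30, adjusted p = 0.358). Its exons overlap Psph on the opposite strand by 452 bases, and without a stated strand setting the reads of such a pair cannot be told apart.

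The remaining subunits also had positive fold changes. Tcp1, the alpha subunit gene, had 638 and 247 CPM in KO 1 and KO 2, against 339 and 299 CPM in control 1 and control 2, so KO 2 was the lowest of the 4 libraries and KO 1 the highest (log2 fold change 0.47 ± 0.38, adjusted p = 0.658). Its exons overlap Mrpl18 and Acat3 on the opposite strand by 588 bases in all. Cct2, the beta subunit gene, had 331 and 216 CPM in KO 1 and KO 2, against 183 and 216 CPM in control 1 and control 2, where KO 2 and control 2 were equal to 3 digits (log2 fold change 0.45 ± 0.26, adjusted p = 0.494). Cct5, Cct7 and Cct8 had log2 fold changes of 0.49 ± 0.29, 0.38 ± 0.28 and 0.47 ± 0.22. Cct7 and Cct8 exons overlap Pradc1 and Usp16 on the opposite strand by 214 and 192 bases. In Cct8 the genotypes did not overlap, at 195 and 163 CPM in KO 1 and KO 2, against 127 and 131 CPM in control 1 and control 2, and in Cct5 and Cct7 KO 2 lay between the controls. KO 1 was above KO 2 in all 8 subunit genes other than Cct6b, and the family median was 0.16 without KO 1 and 0.73 without KO 2.

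Per kilobase of exon, the 8 main subunit transcripts were not equally abundant. Tcp1 had 223 and 86.3 CPM per kilobase in KO 1 and KO 2, against 119 and 105 in control 1 and control 2. Cct3 had 57.0 and 49.2 CPM per kilobase in KO 1 and KO 2, against 34.2 and 30.4 in control 1 and control 2. Tcp1, Cct2 and Cct5 ranged from 86.3 to 223 CPM per kilobase in KO and from 89.3 to 121 in control libraries. Cct3, Cct4 and Cct6a ranged from 38.2 to 69.6 CPM per kilobase in KO and from 30.4 to 40.7 in control libraries. Cct7 and Cct8 lay between these sets, at 66.3 to 92.9 CPM per kilobase in KO and 48.2 to 74.05 in control libraries, overlapping both sets in KO. Lengths are from GENCODE M21 exons, and these levels depend on which exons the authors counted. Cofactors of the ring (prefoldin subunits, Pdcl, Pdcl3 and Txndc9) were measured as a separate list. Of these 9, 0 were called and the median was 0.20. In 6 the fold change was positive (66.7%, against 47.6% of all tested genes and 55.9% of those with at least 10 CPM). Pfdn6, with the smallest p among them, had a log2 fold change of 0.46 ± 0.32 (adjusted p = 0.585). Whether the 2 lists differ was not tested.

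In the HSP70 family 0 of 13 members were called. At an unadjusted p below 0.05, 2 were higher, Hspa8 and Hspa9 (15.4%, against 6.97% of all tested genes). Another 2 were lower, Hspa4l and Hspa1a (15.4%, against 6.91%). Hspa8 (chromosome 9, 40801276 to 40805202), the constitutive cytosolic HSP70 also called HSC70, had 1521 and 1080.0 CPM in KO 1 and KO 2, against 916 and 693 CPM in control 1 and control 2. Both KO libraries were above both controls, and the log2 fold change was 0.69 ± 0.27 (unadjusted p = 0.0292, adjusted p = 0.300). Per kilobase it was the second most abundant member, at 636 and 451 CPM per kilobase in KO 1 and KO 2, against 383 and 289.7 in control 1 and control 2. Hspa4, a nucleotide exchange factor of the HSP110 type, had a log2 fold change of 0.29 ± 0.27 (adjusted p = 0.721). Its relative Hspa4l had the opposite sign, with 99.9 and 102.3 CPM in KO 1 and KO 2, against 132 and 166 CPM in control 1 and control 2. Both KO libraries were below both controls, and the KO libraries were close to each other, a log2 fold change of -0.56 ± 0.23 (adjusted p = 0.317). Of the 55 members of at least 10 CPM, Hspa4l alone was lower at an unadjusted p below 0.05 and 9 were higher (1.82% and 16.4%, against 6.75% and 9.64% of the 9255 genes at that level). Hspa14, a ribosome-associated HSP70, had 86.0 and 84.9 CPM in KO 1 and KO 2, against 89.9 and 90.2 CPM in control 1 and control 2 (log2 fold change -0.08 ± 0.22).

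The heat-inducible HSP70 genes had very few reads in these cells. Hspa1a had 1 and 0 counts in KO 1 and KO 2, against 18 and 13 counts in control 1 and control 2. A count of 0 in KO 2 allows a level of up to 0.0843 CPM. The ratio of KO to control was 0.0213, with a 95% exact binomial interval of 0.000523 to 0.128 that covers counting error only, and edgeR's adjusted p was 0.341. Hspa1b had 7 and 18 counts in KO, against 6 and 20 in control. These 2 genes are near-identical copies, so their reads can be split or discarded in counting, and both values are uncertain. Hspb1, the small heat-shock protein HSP27 (called HSP25 in mouse), had 6, 0, 0 and 6 counts in KO 1, KO 2, control 1 and control 2 and was not tested. Of the other small heat-shock genes, Hspb11, which despite its name encodes the ciliary transport protein IFT25, had 22.7 and 34.6 CPM in KO 1 and KO 2, against 22.7 and 33.4 CPM in control 1 and control 2 (log2 fold change 0.02 ± 0.34), and the remaining 6 were below 10 CPM in every library.

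A list of 11 members of the heat response held Hspa1a, Hspa1b, Hspa8, Hsp90aa1, Hsp90ab1, Hsph1, Hspb1, Hspd1, Hspe1, Dnajb1 and Dnaja1, of which Hspa8 and Hsp90ab1 are largely constitutive. Of these, 10 were tested and 0 were called, with a median of 0.36 that was -0.05 without KO 1 and 0.83 without KO 2. The 8 tested genes other than Hspa8 and Hsp90ab1 had a median of 0.19, which was -0.12 without KO 1 and 0.51 without KO 2. Hsf1, the factor of the heat response, had 40.9 and 37.2 CPM in KO 1 and KO 2, against 57.2 and 48.7 CPM in control 1 and control 2 (log2 fold change -0.44 ± 0.26, adjusted p = 0.499), with both KO libraries below both controls. Over Hsf1, Hsf2, Hsf4, Hsf5, Hsbp1 and Hsbp1l1, 0 of 6 were called and the median was -0.16. Dnajb1, the J-domain partner of inducible HSP70, had 82.0 and 73.6 CPM in KO 1 and KO 2, against 107 and 63.7 CPM in control 1 and control 2 (log2 fold change -0.13 ± 0.28, adjusted p = 0.902), and Hsph1, encoding HSP110, had 95.3 and 42.1 CPM in KO 1 and KO 2, against 64.9 and 49.5 CPM in control 1 and control 2 (log2 fold change 0.27 ± 0.37, adjusted p = 0.826). Neither separated the genotypes. Of 10 tested genes of the immediate-early response, which also respond to handling of tissue, 2 were lower in KO at the threshold and 0 higher. Their part in the result was not tested.

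Of the 3 HSP90 genes 0 were called, and the cytosolic pair differed widely between KO 1 and KO 2. Hsp90ab1 (chromosome 17, 45567778 to 45573261), the constitutive cytosolic HSP90, had 3443 and 1624 CPM in KO 1 and KO 2, against 1864 and 1342 CPM in control 1 and control 2. Hsp90aa1, its inducible counterpart, had 1183 and 481 CPM in KO 1 and KO 2, against 689 and 521 CPM in control 1 and control 2. Hsp90ab1 was the most abundant member per kilobase, at 1366 and 644 CPM per kilobase in KO 1 and KO 2, against 739.6 and 533 in control 1 and control 2. In both genes KO 1 stood above the other 3 libraries and KO 2 was below control 1. Their log2 fold changes were 0.66 ± 0.36 and 0.46 ± 0.38, with adjusted p-values of 0.460 and 0.667, and without KO 1 they were 0.06 and -0.29. In both, the difference between the genotype means was smaller than that between the KO libraries. Hsp90b1, the ER member also called GRP94, had 399 and 313 CPM in KO 1 and KO 2, against 326 and 346 CPM in control 1 and control 2 (log2 fold change 0.09 ± 0.23, adjusted p = 0.925).

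**Figure D3:**
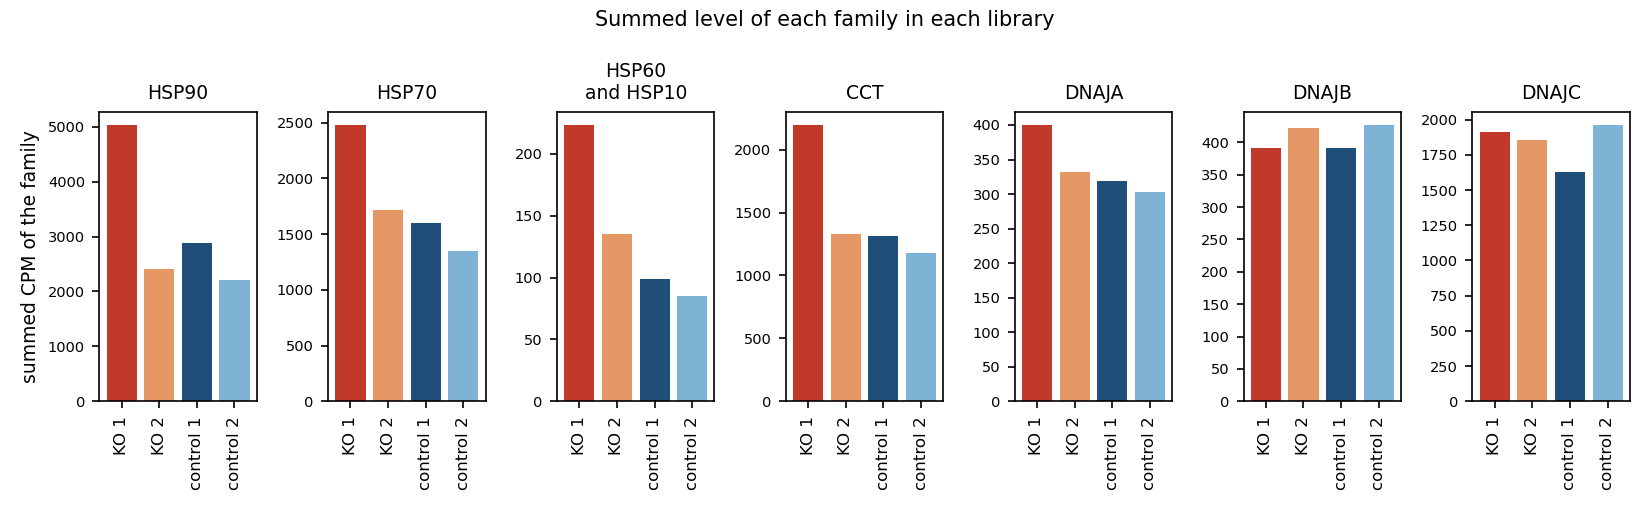
Summed CPM of each family (y axis, a scale of its own in each panel starting at 0) in KO 1, KO 2, control 1 and control 2. KO 1 is the highest library in HSP90, HSP70, HSP60 and HSP10, CCT and DNAJA, and the DNAJB and DNAJC sums of the KO libraries lie between those of the controls.

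KO 1 had the highest share of chaperone reads. Members took 1.23% and 0.885% of all counts in KO 1 and KO 2, against 0.819% and 0.761% in control 1 and control 2. HSP90 genes summed to 5026 and 2418 CPM in KO 1 and KO 2, against 2878 and 2209 CPM in control 1 and control 2. CCT genes summed to 2194 and 1328 CPM in KO 1 and KO 2, against 1311 and 1179 CPM in control 1 and control 2. DNAJB genes, by contrast, summed to 391 and 422 CPM in KO 1 and KO 2, against 391 and 426 CPM in control 1 and control 2. Among members of at least 10 CPM, KO 1 exceeded KO 2 in all 3 HSP90, both HSP60 and HSP10, all 8 CCT and all 3 DNAJA genes, but in 1 of 7 DNAJB and 9 of 21 DNAJC genes, where the share over all 9255 genes at that level was 56.3%. Between the controls, control 1 exceeded control 2 in 2 of 3 HSP90, both HSP60 and HSP10, 5 of 8 CCT and all 3 DNAJA genes. It did so in 1 of 7 DNAJB and 6 of 21 DNAJC genes. Over all genes at that level control 1 was the higher in 4330 of 9255, and over the members in 26 of 55. KO 1 also had the higher summed level of early T-lineage markers and the lower sum of DP markers of the KO pair, as given above, and 10 cycling-cell markers summed to 4525 and 3163 CPM in KO 1 and KO 2, against 5273 and 4009 CPM in control 1 and control 2. Whether these play a part in the chaperone levels was not tested.

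ER chaperones and their J-domain partners did not pass the test in either direction. Over 10 ER members, 0 were called, 0 had an unadjusted p below 0.05, and the median was 0.17. Hspa5, the ER HSP70 known as BiP and a standard marker of the unfolded protein response, had 142 and 101.8 CPM in KO 1 and KO 2, against 114 and 100.7 CPM in control 1 and control 2, where KO 2 lay between the controls (log2 fold change 0.19 ± 0.24, adjusted p = 0.813). Dnajb11, a BiP partner, had 50.7 and 71.2 CPM in KO 1 and KO 2, against 53.6 and 55.5 CPM in control 1 and control 2 (log2 fold change 0.16 ± 0.26), and Dnajc3, an inhibitor of the stress kinase PERK as well as a BiP partner, had 194 and 241 CPM in KO 1 and KO 2, against 248 and 288 CPM in control 1 and control 2 (log2 fold change -0.30 ± 0.23, adjusted p = 0.635). The 3 members with the ER element in their promoter window, Hspa5, Hsp90b1 and Dnajc3, thus had log2 fold changes between -0.30 and 0.19. Of 19 other ER folding and unfolded protein response genes (Hyou1 is also among the cochaperones below), 0 were called and the median was 0.24. Positive fold changes were found in 14 (73.7%, against 47.6% of all tested genes and 55.9% of those with at least 10 CPM). Atf6, a sensor of that response, had the smallest p, with 46.7 and 53.5 CPM in KO 1 and KO 2, against 31.4 and 26.9 CPM in control 1 and control 2 (log2 fold change 0.78 ± 0.27, adjusted p = 0.244).

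The J-domain families are the largest and had medians of 0.43 for 4 DNAJA genes, 0.17 for 12 tested DNAJB genes and 0.16 for 25 tested DNAJC genes. Dnaja1, the main cytosolic HSP40 partner of HSC70, had 201 and 158 CPM in KO 1 and KO 2, against 172 and 161 CPM in control 1 and control 2 (log2 fold change 0.11 ± 0.23, adjusted p = 0.898), and 608 bases of its exons overlap Smu1 on the opposite strand. Dnaja4, named after its values were seen, had 13.1 and 11.8 CPM in KO 1 and KO 2, against 2.19 and 7.82 CPM in control 1 and control 2, and 1581 bases of its exons overlap Wdr61 on the opposite strand (log2 fold change 1.29 ± 0.59, adjusted p = 0.375). Its estimate was 0.67 without control 1, which had 26 counts of Dnaja4, and 2.51 without control 2. Dnajb6, a suppressor of protein aggregation, had a log2 fold change of 0.05 ± 0.25, and none of the 12 DNAJB genes had an unadjusted p below 0.05. In the DNAJC family 4 of 25 genes did, all higher in KO (16%, against 6.97% of all tested genes and 9.64% of those with at least 10 CPM). Dnajc9 (chromosome 14, 20384638 to 20388910), a J-domain protein that also chaperones histones, had 95.8 and 67.6 CPM in KO 1 and KO 2, against 49.9 and 38.7 CPM in control 1 and control 2. Its genotypes did not overlap, with means of 81.7 ± 19.9 CPM in KO and 44.3 ± 7.92 CPM in control (SD, n = 2 each) and a log2 fold change of 0.89 ± 0.27 (unadjusted p = 0.00956, adjusted p = 0.207). Dnajc28 had 14.7 and 17.1 CPM in KO 1 and KO 2, against 2.27 and 9.75 CPM in control 1 and control 2, where the genotypes did not overlap but the controls differed widely (log2 fold change 1.38 ± 0.61, adjusted p = 0.357). Its estimate was 0.71 without control 1 and 2.81 without control 2. Control 1, the library with the lowest total, had 27 counts of Dnajc28.

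Dnajc12, named after its values were seen, was present in KO and near absent in control. It had 55 and 73 counts in KO 1 and KO 2, against 0 and 2 counts in control 1 and control 2. The ratio of KO to control was 42.3, with a 95% exact binomial interval of 11.5 to 353 that covers counting error only. Its level reached at most 2.05 CPM, and edgeR's adjusted p was 0.219. Dnajc13, an endosomal J-domain protein, and Dnajc7, which binds both HSP70 and HSP90, had log2 fold changes of -0.07 ± 0.25 and 0.16 ± 0.24. The HSP70-binding exchange factor Hspbp1 and the small-HSP-associated Hspbap1 had log2 fold changes of -0.0039 ± 0.46 and -0.22 ± 0.31. Exons of Hsp90b1, Hspa1a, Dnajb6, Dnajc7, Dnajc13 and Dnajc30 also overlap genes on the opposite strand (1810014B01Rik, Gm20481, Gm5129, Nkiras2, Gm37563 and Bud23), with the same limit as for Cct6a. On the same strand, exons of Hspa14 overlap Gm45902 by 321 bases and those of Dnaja1 overlap Mir207 by 74. Those of Hsp90b1 overlap Gm15344 and Gm25745 by 196 bases in all. Reads from such bases cannot be told apart under any strand setting. For Dnajc19, 1 pseudogene symbol is also in the count files. The 35 tested members not described one by one had 23 positive and 12 negative fold changes. Every member with an unadjusted p below 0.05 is described by name, so the 35 hold none by selection. The 20 of them with a mean of at least 10 CPM ranged from -0.42 (Dnajb4) to 0.62 (Dnajc27).

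Cochaperones regulate the HSP70 and HSP90 cycles or pass clients between them, and 1 of them was called. Of 25 cochaperones tested, 1 was higher and 0 lower at the threshold, where 0.27% and 0.181% of all tested genes were. At an unadjusted p below 0.05, 3 were higher (12%, against 6.97% of all tested genes) and 0 lower (against 6.91%). Over genes of at least 10 CPM these shares were 9.64% and 6.75%. The median log2 fold change of the 25 was 0.36. In 13 of the 25 (52%, against 22.8% of all tested genes) both KO libraries lay above both controls, and in 2 (8%, against 24%) both lay below. All tested genes include many of few reads. At 10 CPM or more, KO 1 lay above both controls in 44.5% of genes and KO 2 in 36.5%, each counted separately. The called gene was Fkbp5, an HSP90-binding immunophilin that is induced by glucocorticoids and limits their receptor. It had 847 and 732 CPM in KO 1 and KO 2, against 219 and 249.1 CPM in control 1 and control 2, and both KO libraries were far above both controls. Its log2 fold change was 1.75 ± 0.23 (adjusted p = 0.0212). Without KO 1 the estimate was 1.68 and the call ended (adjusted p = 0.0653). Its paralogue Fkbp4, which assists the same receptor and was named after its values were seen, had 129 and 88.8 CPM in KO 1 and KO 2, against 94.7 and 76.9 CPM in control 1 and control 2 (log2 fold change 0.34 ± 0.26, adjusted p = 0.626). Whether Fkbp5 and Fkbp4 differed from each other was not tested.

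**Figure D4:**
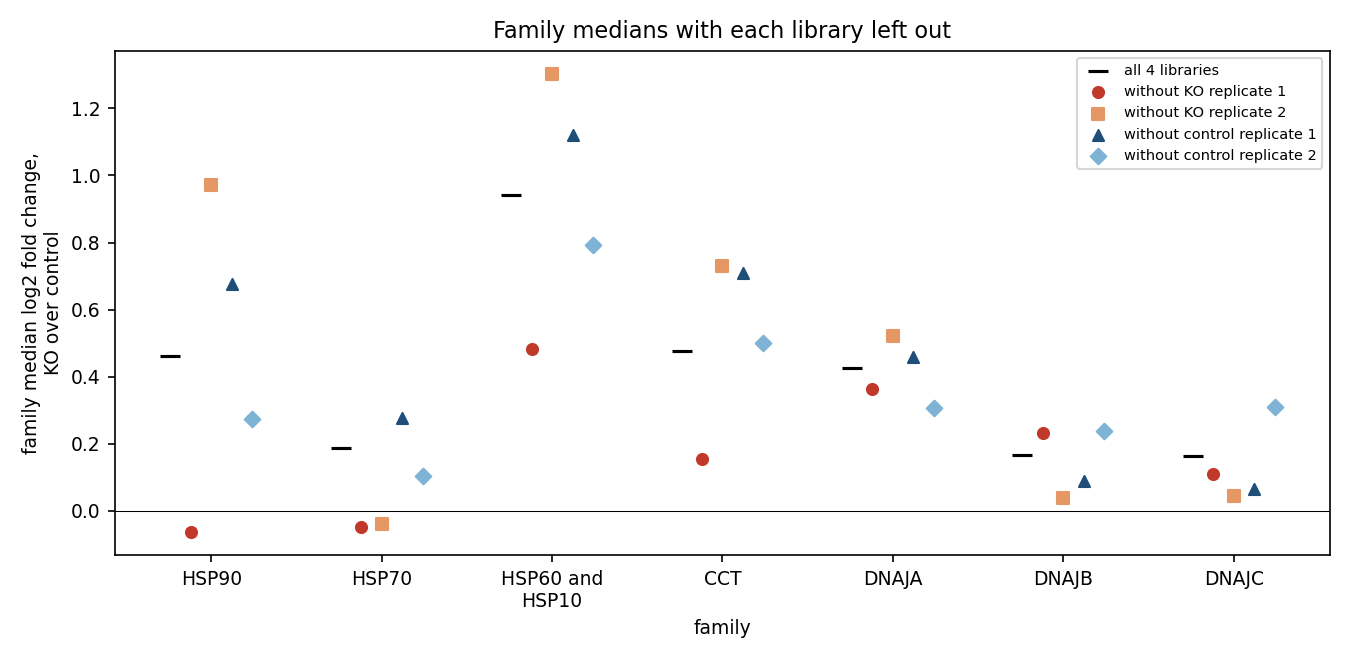
Median log2 fold change of KO over control (y axis) of 7 families (x axis) with all 4 libraries and with each library left out in turn. The HSP60 and HSP10, CCT, DNAJA, DNAJB and DNAJC medians remain above 0 in every case, between 0.04 and 1.30, and the HSP90 and HSP70 medians are -0.07 and -0.05 without KO 1; the HSP70 median is -0.04 without KO 2.

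Since the CXXC1 protein binds CpG-rich promoters, the CpG content of the members' promoter windows was counted. The 64 tested members with an entry had a median of 25 CpG dinucleotides per 300-base window, against 18 over 14352 tested genes, taking for each gene the window with the most. At least 20 were present in 64.1% of members, against 45.2% of tested genes. The genes were not matched to the members for expression level. The 17 members with both KO libraries above both controls had a median of 23. The 8 with both below had a median of 25.5 (quartiles 18 and 39.75), and the 39 with overlapping genotypes 25. The Hspe1 and Hspd1 windows held 36 and 39. These counts describe sequence only, and no binding or histone mark was measured here.

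**Figure D5:**
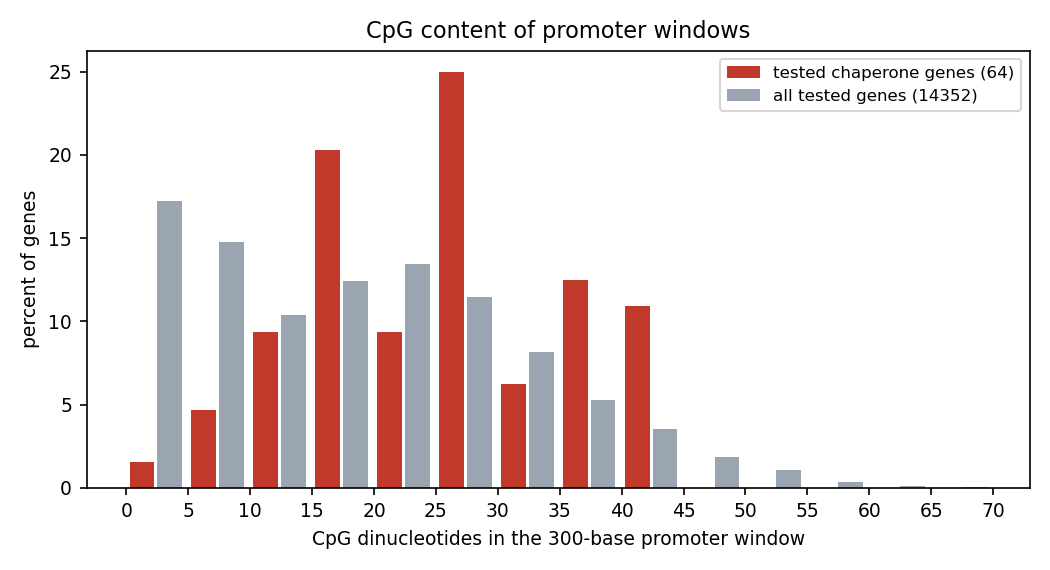
Percent of genes (y axis) by the number of CpG dinucleotides in the 300-base promoter window (x axis, bins of 5) for the 64 tested members with an entry and for 14352 tested genes. The members' median is 25 and that of all tested genes is 18.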

How the data were processed

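Per the labels' protocols, TRIzol RNA of sorted DP thymocytes, 10 ng per library, went into the SMART-seq Standard kit. The authors deposited raw counts per gene symbol, 1 file per library. Trimming with cutadapt 4.0, the aligner HISAT2 2.2.1, the counter featureCounts 2.0.8, a use of edgeR 3.36.0 and the build mm10 appear in the submitters' processing notes. Annotation, strandedness and handling of multi-mapping reads: not given in the sources used here. No molecular identifiers are named, so counts are reads, and intervals and floors cover counting error only.

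All genes were tested together in R 4.3.3 with edgeR 4.0.16: filterByExpr (minimum count 10, minimum total 15), TMM, quasi-likelihood test, genotype as the only term, 2 residual degrees of freedom, Benjamini-Hochberg adjustment over 20389 genes, called below 0.05. Standard errors are the fold change divided by the root of F, and the biological coefficient of variation was 57.4%. The fit was checked on simulated counts. Differences between any 2 libraries exceeded counting noise (smallest chi-square over its degrees of freedom 51.9), and no library was treated as a duplicate. Alternatives were DESeq2 1.42.0, other scalings and filters, a replicate block and each library left out.

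Members and lists were chosen with earlier results of these data known. The text names members that were called, those with an unadjusted p below 0.05 and at least 10 CPM, the most abundant of each family, 17 preset ones, Hsf1, and the gene with the smallest p in each other list. Others (Dnaja3, Dnajc15, Dnajc30, Cct5, Cct6b, Cct7, Cct8, Hspa14, Dnajc12, Dnaja4, Dnajb4, Dnajc27, Fkbp4) were named after their values were seen. Promoter sequences are from RefSeq on GRCm38.p6 and exon lengths from GENCODE M21, for the same assembly, and were read in Python 3.11.15.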

Additional observations from a re-analysis of the deposited data

How the results depend on the processing

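Counts of called genes depended strongly on the settings. Of all genes, 92 were called (55 higher in KO), and DESeq2 called 947 (441 higher), the fit with no filter on low counts 920 (529), a minimum mean of 5 CPM 231 (110) and the leave-one-out fits 9 to 619 (7 to 370). Members called numbered 0 in the main fit. DESeq2 called 2 of 76, where it called 4.64% of all tested genes. The fit with no filter called 3 of 81 (Hspd1, Hspa9 and Dnajc9), where it called 3.01% of all tested genes. In the leave-one-out fits the lone library is assumed to vary like the pair of the other genotype. DESeq2 gave no adjusted p for 396 genes. Members at an unadjusted p below 0.05 ranged from 2 to 16 higher and 0 to 3 lower over the leave-one-out fits, and 1 was lower with no filter. The numbers 1 and 2 in the labels do not show a pairing: deviations of same-numbered libraries from their group means had a correlation of -0.00956. With the replicate block 1599 genes (934 higher), 7.84% of all tested genes, were called, among them 11 of 76 tested members. At an unadjusted p below 0.05, 18 members were higher in that fit, beside 9.93% of all tested genes. The 11 called members were Hspd1, Hspe1, Hspa8, Hspa9, Hsp90ab1, Cct3, Cct6a, Dnaja4, Dnajc9, Dnajc19 and Dnajc28, all higher in KO.

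The median of all members stayed between 0.10 and 0.28 over the leave-one-out fits. Leave-one-out ranges of family medians were -0.065 to 0.97 for HSP90, -0.047 to 0.28 for HSP70 and -0.40 to 0.74 for HSP110. They were -1.20 to 0.33 for small heat-shock proteins, 0.48 to 1.30 for HSP60 and HSP10, 0.16 to 0.73 for CCT and 0.045 to 0.31 for DNAJC. The small heat-shock median was -0.58 with no filter, 0.21 at a minimum mean of 5 CPM and 0.024 with the replicate block, and that of DNAJC was 0.080 at 5 CPM. The heat-response median without Hspa8 and Hsp90ab1, an alternative chosen after seeing the data, was 0.19. Estimates near 0 changed sign: Hspb11 and Dnajb6 at 5 CPM (-0.041 and -0.024), and Hspbp1 with library totals only (0.013) and with no filter (0.026). Over the leave-one-out fits sign changes among the members named in the text occurred in Cct6b (-1.23 to 0.76), Dnajc15 (-0.41 to 0.11), Dnajc30 (-1.07 to 0.48), Hsp90aa1 (-0.29 to 0.97), Hsp90b1 (-0.065 to 0.25), Hspa4 (-0.081 to 0.61), Hspa5 (-0.036 to 0.41), Hsph1 (-0.40 to 0.74), Hspb11 (-0.31 to 0.33), Tcp1 (-0.33 to 1.00), Dnaja1 (-0.038 to 0.28), Dnajb6 (-0.22 to 0.38), Dnajb1 (-0.46 to 0.29), Dnajb11 (-0.10 to 0.42), Dnajc13 (-0.32 to 0.24), Dnajc7 (-0.026 to 0.38), Hspbap1 (-0.48 to 0.097) and Hspbp1 (-0.38 to 0.33). The cause was not tested. Hspa1a, Hspa1b, Hspb1 and Dnajc12 have few counts in 1 or both genotypes, which limits their precision.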
